A study of Mus musculus with 9 samples.

Results

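Kidneys of mice that had received cisplatin together with ergothioneine (EGT) were compared with kidneys of mice that had received neither agent. The members of the comparison were 6 of the 9 mice of the series, chosen by their labels: 3 AKI-CKD + EGT mice and 3 Control mice. All were male C57BL/6 mice that arrived at 6 weeks of age. AKI-CKD + EGT mice were given 4 weekly intraperitoneal injections of cisplatin at 8 mg/kg and had EGT in their drinking water at 0.5 mg/mL, about 100 mg/kg per day, from 3 days before the first injection to the end. Control mice were injected with saline, and kidneys were taken after 8 weeks. The 3 remaining mice, AKI-CKD, had cisplatin without EGT, and their values are given beside the comparison as a point of reference. The groups compared differed in both cisplatin and EGT, so what belongs to either agent cannot be told apart. RNA of single kidney cells was counted in droplets as unique molecular identifiers (UMIs), which count RNA molecules. Cells were kept from 1000 UMIs and 500 genes upward, with mitochondrial RNA making up no more than 15% of their UMIs. Of the 196925 cells kept in the series, 131186 came from the 6 mice.

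Cisplatin enters cells of the proximal tubule (PT), the segment that reclaims most of the filtered solutes, largely through the organic cation transporter Slc22a2. It crosslinks DNA, and damaged DNA stabilises p53, a transcription factor that switches on genes of cell cycle arrest, repair and cell death. EGT is a sulphur-containing amino acid derivative from the diet with antioxidant properties, and Slc22a4 is the transporter that takes it up.

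Mice of the same group differed in cell numbers and quality. Between 17196 and 27463 cells with 64225484 to 97584966 UMIs were kept per mouse, and the median cell held 2534 to 2966 UMIs. The mitochondrial limit removed 17%, 4.41% and 0.909% of cells from Control mice 1 to 3 and 5.21%, 7.94% and 27.7% from AKI-CKD + EGT mice 1 to 3. AKI-CKD + EGT mouse 3 also had the lowest share of PT cells, at 65.3%. Nuclear RNA made up 1.57% of its UMIs, against 0.686 and 0.727% in mice 1 and 2. Ribosomal protein RNA made up 9.21 to 10.3% of UMIs in AKI-CKD mice. It made up 7.38 to 8.15% in Control and 7.47 to 8.66% in AKI-CKD + EGT mice, which overlapped. Haemoglobin RNA was at 4.0e-05 to 0.000326% in AKI-CKD, 0.000119 to 0.0223% in Control and 0.00666 to 0.013% in AKI-CKD + EGT mice. Control mouse 1, the lowest of its group, lay within the AKI-CKD range. RNA of PT cells was found in every other cell type. Over 4 PT genes (Kap, Slc34a1, Miox and Lrp2), its median level in DCT cells was 43.1 to 64.7% of that in PT cells, and in T cells it was 46.7 to 62.9%. PT cells (164480 over the 9 mice), DCT cells of the distal convoluted tubule (10342), LOH cells of the loop of Henle (5789), endothelial cells (3578), principal cells of the collecting duct (CD-PC, 3150), macrophages (2619) and intercalated cells of the collecting duct (CD-IC, 1528) each carried their defining markers. In each mouse, the counts of a cell type were summed, so that the mouse was the replicate.

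Few single genes separated the AKI-CKD + EGT mice from the Control mice when all genes were adjusted for together. A gene was called at an adjusted p under 0.05 in edgeR's quasi-likelihood test. In all kept cells 1 of 20144 genes was called higher, 0.00496% of those tested, and 0% were called lower. Endothelial cells had 1 gene called in each direction among 10269, 0.00974% each. No gene was called in PT (18062 tested), DCT (11549), LOH (10185), macrophages (8627), CD-PC (9848) or CD-IC cells (7903). At an unadjusted p under 0.05, there were 1599 genes in all kept cells, 510 in endothelial cells, 1336 in PT, 628 in DCT, 673 in LOH, 343 in macrophages, 459 in CD-PC and 582 in CD-IC cells. A share of about 0.05 of genes would meet that threshold if nothing differed. Endothelial cells, macrophages and CD-PC cells lay under that share, and the other populations above it. DESeq2, another count model, called 30 genes higher and 74 lower in PT cells (0.166% and 0.41%). In all kept cells it called 23 and 86, in endothelial cells 2 and 2, and it called 0 and 4 in DCT, 0 and 2 in LOH, 2 and 0 in CD-PC, 0 and 1 in CD-IC cells and none in macrophages. The values below are therefore given mouse by mouse, and a gene that did not pass is described only by its values.

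Endothelial cells, which line the blood and lymph vessels, held both genes that passed the test in a single cell type. Zbtb16, which encodes the transcription factor PLZF and is known as a target of the glucocorticoid receptor, was the gene that fell. Levels are given as CPM, UMIs scaled to a common library size. Zbtb16 was at 185, 146 and 168 CPM in Control mice 1 to 3 and at 46.1, 51.3 and 40.8 CPM in AKI-CKD + EGT mice 1 to 3. The lowest Control value lay well above the highest AKI-CKD + EGT value. The log2 fold change was -1.85 ± 0.259 (SE) with an adjusted p of 0.0243. The estimate lay between -1.94 and -1.76 with any 1 mouse left out, but the adjusted p was then 0.0679 to 0.206, so the call was lost without any 1 of the 6 mice. AKI-CKD mice had 102, 44.2 and 96.3 CPM, between the groups or level with the EGT mice.

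Ccl21a encodes a chemokine of lymphatic endothelium that guides dendritic cells and T cells, and it was the gene called higher. It was at 0 UMIs in the endothelial cells of the 3 Control and the 3 AKI-CKD mice. AKI-CKD + EGT mice 1 to 3 had 77.2, 110 and 56.5 CPM (adjusted p = 0.000663), but the gene passed the filter on low counts through this group alone, so it could be tested only where it was high and the call is given as a description. These values came from 5 cells. A single cell carried all 92 UMIs in mouse 1, another carried all 94 in mouse 3, and 3 cells carried 188 in mouse 2, of which 171 lay in 1 cell. Counted in cells, 5 of 1303 AKI-CKD + EGT endothelial cells had a UMI of Ccl21a. None of 1209 Control endothelial cells had one, which allows a share of up to 0.248% of cells with a UMI. That limit pools the cells of 3 mice and covers counting error only, not the spread between mice. With so few cells carrying the UMIs, no fold is given. In all kept cells Ccl21a was also the called gene (adjusted p = 0.022), with 392 UMIs in 22 cells of AKI-CKD + EGT mice against 1 UMI in 1 Control cell. Of the 392 UMIs, 374 were those of the 5 endothelial cells, so this call adds no separate evidence, and the filter was again passed through the EGT mice alone. The test in all kept cells lost the call without any 1 of the 6 mice. Its average level there was under the minimum set for naming a gene, and it is named after its values were seen. Near-identical copies of the gene exist in the mouse genome, so the assignment to Ccl21a is uncertain. Prox1 and Lyve1, markers of lymphatic endothelium, did not pass the filter on low counts in endothelial cells, and Flt4, another, was at 28.5, 35.6 and 41.2 CPM in Control mice and 36.1, 29.2 and 28.2 CPM in AKI-CKD + EGT mice.

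Low Zbtb16 values were not limited to endothelium. In PT cells Zbtb16 was at 34, 25 and 29.8 CPM in Control mice and at 11.6, 4.76 and 10.7 CPM in AKI-CKD + EGT mice. The log2 fold change there was -1.72 ± 0.442 (adjusted p = 0.431), and the groups did not overlap. In DCT and LOH cells it was -1.03 and -1.47, again without overlap, while in macrophages, CD-PC and CD-IC cells the groups overlapped. In Control mice the endothelial level was above the PT level in each mouse. A pair of further genes had low values in the same mice and were picked out after their values were seen. Fkbp5, a co-chaperone of the glucocorticoid receptor and one of its targets, was at 70.6, 35.9 and 48.7 CPM in PT cells of Control mice and at 22.4, 24.4 and 23.4 CPM in AKI-CKD + EGT mice (log2 fold change -1.15, adjusted p = 0.475). Alas1, the rate-limiting enzyme of haem synthesis, was at 227, 106 and 133 against 84.1, 59.9 and 66.3 CPM in PT cells (log2 fold change -1.15, adjusted p = 0.34). Neither passed the test, and Control mouse 1 was the highest for both. Tsc22d3 and Per1, also known as glucocorticoid targets and also named after values were seen, differed from each other. No list of such targets was examined. Tsc22d3 was lower in all 3 mice in PT and DCT cells (-0.44 and -0.65), whereas Per1 overlapped in PT cells (27.2, 9.06 and 12.5 against 10.3, 14.1 and 7.64 CPM). Several of these genes also follow the time of day, and the hour at which each kidney was taken is not given in the sources used here. The circadian list had a median of -0.34 over 23 genes tested in PT cells, with 2 genes lower without overlap and 0 higher, where 5.54% and 5.02% of all PT genes were. Without Control mouse 1 that median was 0.10.

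**Figure D1:**
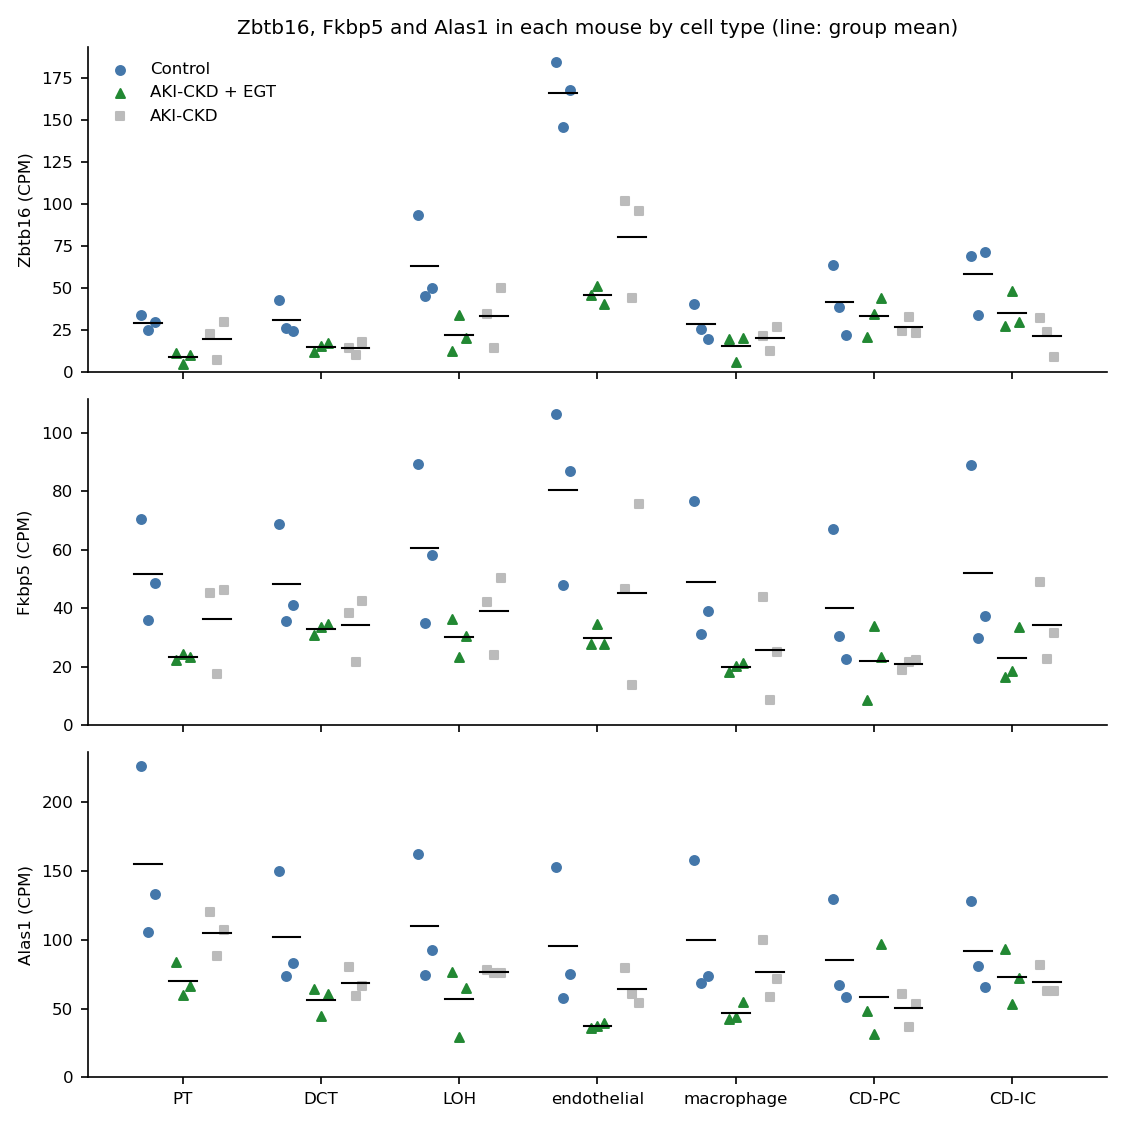
CPM of Zbtb16, Fkbp5 and Alas1 in the summed counts of 7 cell types, 1 point per mouse, with a line at each group mean. Zbtb16 in endothelial cells separates Control mice (146 to 185 CPM) from AKI-CKD + EGT mice (40.8 to 51.3 CPM), and for Alas1 and Fkbp5 Control mouse 1 is the highest point in most cell types.

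In PT cells, several p53 targets lay above Control in each AKI-CKD + EGT mouse and below the level of AKI-CKD mice. Cdkn1a encodes the cell cycle inhibitor p21. It was at 9.45, 9.22 and 3.87 CPM in Control mice, 41.9, 16.1 and 26.8 CPM in AKI-CKD + EGT mice and 47.2, 120 and 89.4 CPM in AKI-CKD mice. The AKI-CKD + EGT values thus lay between the other groups without overlap. The log2 fold change against Control was 1.91 ± 0.44 and did not pass (adjusted p = 0.341), although DESeq2 called it (adjusted p = 0.0354). Against the same Control mice, AKI-CKD mice had a log2 fold change of 3.51 (adjusted p = 0.0341). The difference between AKI-CKD + EGT and AKI-CKD mice was -1.60 (adjusted p = 0.214).

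Ephx1, the microsomal epoxide hydrolase that detoxifies reactive epoxides, is on the Nrf2 and antioxidant list, not the p53 list, and had the same order of groups. Its values were 1.51, 1.18 and 1.08 CPM in Control mice against 4.86, 3.44 and 3.76 CPM under cisplatin with EGT, a log2 fold change of 1.68 ± 0.272 (adjusted p = 0.193, DESeq2 1.84e-05). AKI-CKD mice had 6.95, 11.2 and 14.7 CPM, above every EGT mouse (3.12 against Control, adjusted p = 0.00545). Phlda3, an inhibitor of Akt signalling, was at 2.46, 1.34 and 1.26 CPM in Control mice, 4.55, 3.07 and 4.45 CPM in AKI-CKD + EGT and 8.69, 19.0 and 19.2 CPM in AKI-CKD mice. The order of the 3 groups was the same, with a log2 fold change of 1.25 against 3.21. Eda2r, a member of the tumour necrosis factor receptor family, stood near its detection limit in Control mice (0.192, 0.0501 and 0.0626 CPM). It was at 0.362, 0.304 and 0.309 CPM in AKI-CKD + EGT mice. Its log2 fold change was 1.68 ± 0.481, and that of Psrc1, a spindle protein, was 1.46 ± 0.315, with adjusted p-values of 0.473 and 0.34. Without any 1 mouse the log2 fold changes in PT cells stayed within 1.52 to 2.19 for Cdkn1a, 1.52 to 1.83 for Ephx1 and 1.08 to 1.62 for Phlda3.

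The p53 list as a whole differed less. All 35 of its genes were tested in PT cells, and 0 were called. In 7 genes every AKI-CKD + EGT mouse lay above every Control mouse (Cdkn1a, Phlda3, Eda2r, Psrc1, Plk2, Aen and Trp53inp1), and in 1, the ribonucleotide reductase subunit Rrm2b, below. Over all genes tested in PT cells, 5.02% lay above and 5.54% below in this way. The median log2 fold change of the list was 0.16 for AKI-CKD + EGT and 0.52 for AKI-CKD mice against the shared Control mice, beside -0.00016 and -0.014 for all genes. Without Control mouse 1 the first was 0.25. Mdm2, the ubiquitin ligase that degrades p53, was at 26.2, 22.5 and 23.4 CPM in Control mice and 24.4, 23.3 and 22.9 CPM in AKI-CKD + EGT mice. The groups overlapped (log2 fold change -0.03 ± 0.123), as they did for Ccng1 (0.16 ± 0.21), which encodes cyclin G1.

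**Figure D2:**
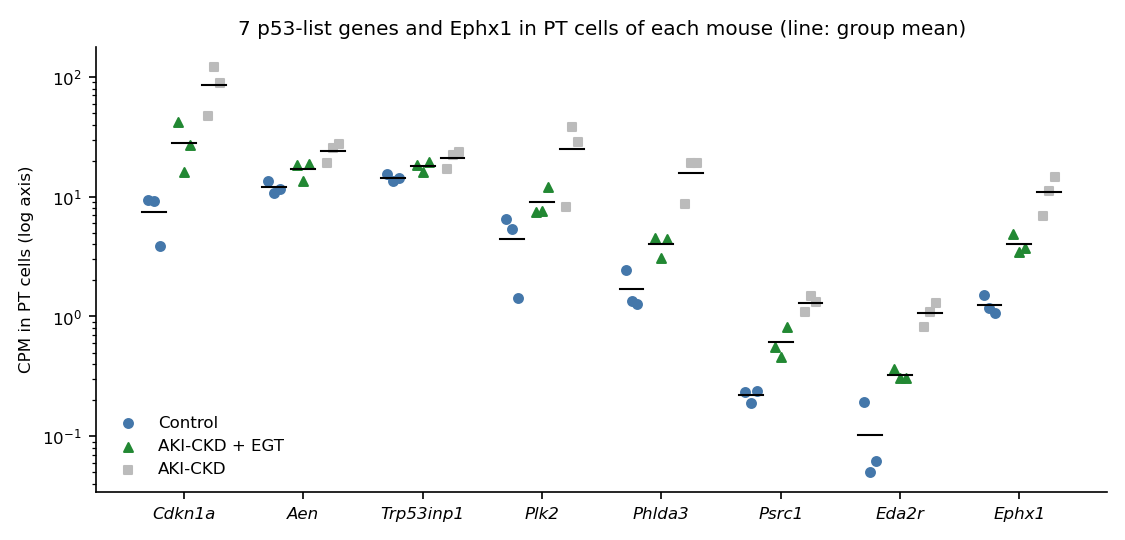
CPM in PT cells on a log axis for the 7 genes of the p53 list that did not overlap upward and for Ephx1, 1 point per mouse, with a line at each group mean. For Cdkn1a the AKI-CKD + EGT mice lie at 16.1 to 41.9 CPM, above Control (3.87 to 9.45) and below AKI-CKD mice (47.2 to 120).

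The promoters of the 35 genes were searched for the full p53 site, a pair of adjoining half-sites with at most 1 mismatched letter on either strand, in RefSeq windows of the GRCm38.p6 build that run from 250 bases before to 50 after each start. Of the 27 genes with a window, 3 held a match (Cdkn1a, Ccng1 and Rps27l), as did 0.107% of all 27025 genes with a window. The stretches of Cdkn1a, whose values separated the groups, and Ccng1, whose values did not, are shown with the match in capitals and 20 bases on either side. Cdkn1a lies at chr17:29090908-29090967 on the plus strand and Ccng1 at chr11:40755442-40755501 on the minus strand.
Cdkn1a: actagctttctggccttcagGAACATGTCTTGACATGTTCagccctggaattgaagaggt
Ccng1: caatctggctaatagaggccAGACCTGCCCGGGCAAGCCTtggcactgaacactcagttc
A match is a run of letters and does not show that p53 was bound there in these kidneys.

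Outside PT cells, Cdkn1a separated the groups in CD-PC cells. There it was at 14.7, 7.64 and 13.3 CPM in Control mice, 49.0, 44.1 and 66.2 CPM in AKI-CKD + EGT and 56.0, 114 and 127 CPM in AKI-CKD mice. Every AKI-CKD + EGT mouse lay above every Control mouse (log2 fold change 2.18 ± 0.359, adjusted p = 0.106, DESeq2 0.000328). Phlda3 in the same cells was at 2.10, 1.91 and 0 against 16.9, 7.08 and 10.6 CPM (adjusted p = 0.628). CD-PC cells of Control mice held 967954, 1072576 and 904852 UMIs in all, so these Control values stood near the detection limit. In LOH cells Cdkn1a overlapped between Control (35.9, 23.7 and 19.4 CPM) and AKI-CKD + EGT mice (37.3, 32.1 and 30.4 CPM), with a log2 fold change of 0.31 ± 0.331. It was 0.27 ± 0.385 in DCT cells and -0.50 ± 0.415 in endothelial cells, where Control mice alone ranged from 297 to 1134 CPM. Whether a change differed between cell types was tested within each mouse with limma. No gene passed among 11523 for DCT against PT or 10178 for LOH against PT (0% each). At an unadjusted p under 0.05 there were 284 and 371, less than a share of 0.05 of the genes tested. Cdkn1a had the lowest adjusted p in both comparisons (0.116 and 0.208). Without AKI-CKD + EGT mouse 2, Cdkn1a passed in both comparisons, and with the replicate number as a block it passed for DCT against PT.

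Rlf and Resf1, which encode nuclear proteins linked to gene silencing, had low values in AKI-CKD + EGT mice in several cell types. In PT cells Rlf was at 28.3, 26.2 and 30.4 CPM in Control mice, 20.1, 18.8 and 20.2 CPM in AKI-CKD + EGT and 16, 14 and 13 CPM in AKI-CKD mice. The 3 groups did not overlap, and the log2 fold change was -0.52 ± 0.115 (adjusted p = 0.34), against -0.98 (adjusted p = 0.0192) for AKI-CKD mice. Resf1 in LOH cells was at 81.6, 56.0 and 68.4 CPM in Control mice, 32.8, 40.1 and 27.7 CPM in AKI-CKD + EGT and 21.1, 24.6 and 26.2 CPM in AKI-CKD mice. Its log2 fold change there was -1.05 ± 0.205 (adjusted p = 0.258), and -1.51 (adjusted p = 0.012) in AKI-CKD mice. In PT, DCT and endothelial cells the log2 fold changes of Resf1 were -1.03, -0.81 and -0.88, each without overlap and without passing the test.

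Clec2d and Mfsd13b had the lowest adjusted p in PT cells, 0.0724 for both. Clec2d encodes a C-type lectin-like ligand of the inhibitory receptor of natural killer cells. It was at 101, 82.7 and 77.6 CPM in Control mice, 30.1, 24.4 and 35.1 CPM in AKI-CKD + EGT and 47.7, 35.5 and 33.4 CPM in AKI-CKD mice. Every value under cisplatin lay below every Control value, and the log2 fold change of AKI-CKD + EGT mice was -1.55 ± 0.184. Mfsd13b, a predicted membrane transporter, was at 36.3, 43.2 and 35.7 CPM in Control mice and 19.3, 19.9 and 17.6 CPM in AKI-CKD + EGT mice (-1.02 ± 0.128). Here AKI-CKD mice, at 35.1, 28.0 and 30.4 CPM, lay between the other groups and close to Control (-0.30). With the cells of the highest doublet scores left out, both passed the test in PT cells (adjusted p = 0.0474). In LOH and DCT cells Clec2d had log2 fold changes of -0.81 and -1.22, and in endothelial cells, where the groups overlapped, -0.19. Clec2d in DCT cells was at 60.9, 58.1 and 38.6 CPM in Control mice and 18.1, 16.9 and 31.4 CPM in AKI-CKD + EGT mice. DCT cells carried RNA of PT cells at 43.1 to 64.7% of the PT level and LOH cells at 50.2 to 64.2%. Its part in the Clec2d values of these cells was not tested. The other PT genes named by the smallest p were Zhx3, a transcriptional repressor, and the predicted genes Gm47551 and Gm16066, with log2 fold changes of -0.56, -1.05 and -0.96. On the higher side they were Gm20390, Maz, Bmp4 and Cbr1. Cbr1, a carbonyl reductase, was at 91.8, 129 and 114 CPM in Control mice, 191, 179 and 145 CPM in AKI-CKD + EGT and 236, 231 and 228 CPM in AKI-CKD mice. The 3 groups were again in order without overlap (0.62 ± 0.156, adjusted p = 0.419).

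Of 10 heat shock genes, whose products fold and protect proteins, 9 had a negative log2 fold change in PT and in DCT cells and 10 in LOH cells, and 0 were called. They are members of the list of immediate early and dissociation genes, and this subset was formed after the values were seen. Hsp90aa1, the inducible HSP90, was at 593, 965 and 786 CPM in PT cells of Control mice and at 462, 331 and 411 CPM in AKI-CKD + EGT mice. AKI-CKD mice, at 529, 739 and 556 CPM, overlapped with Control in PT cells. The log2 fold change of AKI-CKD + EGT mice was -0.96 ± 0.214 in PT (adjusted p = 0.34, DESeq2 0.00411), -0.81 in DCT and -0.74 in LOH cells, where DESeq2 also called it. In LOH cells Hsp90aa1 was at 637, 739 and 657 CPM in Control mice. AKI-CKD mice, at 425, 513 and 455 CPM, lay below all of these there (-0.55, adjusted p = 0.372). Hsph1, a nucleotide exchange factor of HSP70, was at 174, 161 and 140 against 103, 69.2 and 110 CPM in PT cells (-0.75 ± 0.187, adjusted p = 0.419). The groups did not overlap. Hspe1, the mitochondrial chaperonin HSP10, was at 1420, 2086 and 1446 against 1309, 1245 and 1201 CPM (-0.40 ± 0.18). Over the 10 genes the median log2 fold change was -0.63 in PT, -0.50 in DCT, -0.57 in LOH and -0.58 in all kept cells, while for AKI-CKD mice it was 0.17, -0.03, -0.07 and 0.14. The range in PT cells ran from -1.11 for Hspa1b to 0.06 for Hspb1, and 3 genes lay below without overlap, as did 5.54% of all PT genes. Hspa1a and Hspa1b are near-identical, so their counts are uncertain. The whole list of immediate early and dissociation genes had a median of -0.03 over 32 genes in PT cells, between -0.34 without Control mouse 3 and 0.26 without Control mouse 1. In DCT and LOH cells its median was -0.29 and -0.25, with 25 and 26 of 31 genes negative. Without Control mouse 2 these medians turned to 0.11 and 0.05, and without Control mouse 3 they were -0.48 and -0.50. Heat shock and immediate early genes respond to tissue dissociation, and the part of handling in these values was not tested.

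**Figure D3:**
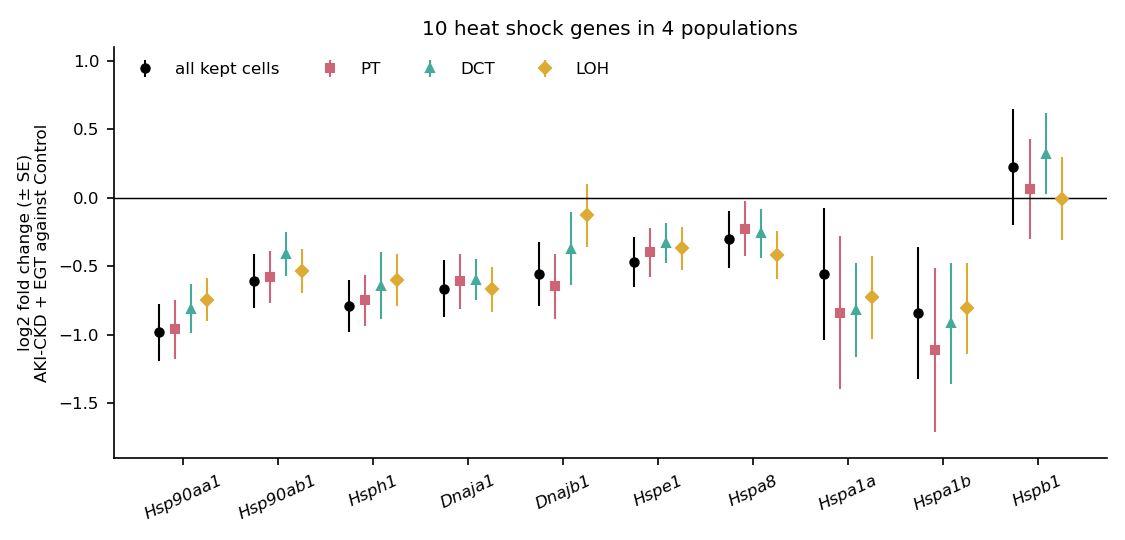
Log2 fold change of AKI-CKD + EGT against Control for 10 heat shock genes in all kept cells, PT, DCT and LOH cells, with bars of 1 SE from edgeR's fit. Hsp90aa1 is at -0.96 in PT cells, and Hspb1, at 0.06 there, is near 0.

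Promoter windows were found for 7 of these 10 genes, not for Hsp90aa1 or Hsp90ab1. The search was for a pair of heat shock elements, GAANNTTC or TTCNNGAA, which are the same on both strands and may overlap. Of the 7 genes, 6 held a match, as did 17% of all 27025 genes with a window. Matches before the start of Hspe1, Hsph1 and Dnaja1 are shown in capitals because these genes had lower values in at least 2 of the 3 tubule segments without overlap. Hspe1 lies at chr1:55088039-55088096 and Dnaja1 at chr4:40722324-40722371 on the plus strand, and Hsph1 at chr5:149636342-149636389 on the minus strand, in the RefSeq table of GRCm38.p6.
Hspe1: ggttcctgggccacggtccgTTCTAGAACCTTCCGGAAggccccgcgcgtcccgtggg
Hsph1: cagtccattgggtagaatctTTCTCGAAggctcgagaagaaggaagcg
Dnaja1: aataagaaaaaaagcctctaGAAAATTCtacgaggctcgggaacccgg
In Hspe1 3 matches overlapped in a single run. Hsph1 held 2 further matches after its start, which are not shown.

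Of 21 genes of EGT and cisplatin transport tested in PT cells, 1 lay above and 2 below Control without overlap. Slc22a4, the EGT transporter, was at 16.2, 20.5 and 24.0 CPM in Control mice and 19.2, 22.2 and 22.6 CPM in AKI-CKD + EGT mice. The groups overlapped (log2 fold change 0.08 ± 0.161), as they did for Slc22a2 (-0.21 ± 0.215), which takes up cisplatin, and for Slc47a1 (0.13 ± 0.141), which exports organic cations into urine. Slc47a2, a second exporter of that family, was at 6.46, 9.93 and 9.35 CPM in Control mice and 2.98, 4.47 and 4.78 CPM in AKI-CKD + EGT mice (-1.07 ± 0.26, adjusted p = 0.37, DESeq2 0.024). Over the list the log2 fold changes ran from -1.07 to 0.98 with a median of 0.07, which was 0.02 without Control mouse 3, and 0 genes were called. The Nrf2 and antioxidant list had a median of 0.05 over 40 genes, with 4 higher and 3 lower without overlap, where 5.02% and 5.54% of all PT genes were. The median was -0.14 without AKI-CKD + EGT mouse 1 and 0.18 without mouse 3. Ephx1 and Cbr1 belong to this list, and with Srxn1, which repairs oxidised peroxiredoxins, they stood on the higher side. Sod1, Gpx1 and Nfe2l2 stood on the lower side, at log2 fold changes of -0.27, -0.53 and -0.22. None passed the test. Nqo1 (0.18), Gclm (-0.24) and Txnrd1 (-0.07), textbook targets of Nrf2, overlapped.

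Genes of PT function had slightly lower medians in AKI-CKD + EGT mice. Of the 42 genes of PT transport and metabolism tested in PT cells, 30 had a negative and 12 a positive log2 fold change, with a median of -0.14. Kap, an androgen-dependent PT protein, did not overlap between groups (log2 fold change -0.60 ± 0.284, adjusted p = 0.682), and neither did Slc5a12, a lactate transporter (-0.35), or Dab2, an adaptor of protein uptake (-0.31). These were the 3 of 42 genes that lay below without overlap, and 5.54% of all PT genes did so. Slc34a1, the phosphate transporter, was at 3825, 4392 and 4520 CPM in Control mice and 4521, 3643 and 3030 CPM in AKI-CKD + EGT mice, with mouse 3 the lowest. The median of the PT transport list was -0.01 without that mouse and -0.25 without mouse 1. The fatty acid oxidation list had a median of -0.13 and the sex-biased PT list -0.36, where Cyp7b1, a steroid hydroxylase, was at 3.42, 1.70 and 4.40 against 0.551, 1.44 and 1.09 CPM. Without AKI-CKD + EGT mouse 3 the fatty acid oxidation median was 0.01, and without Control mouse 3 the sex-biased median was -0.16. The 13 mitochondrially encoded genes had a median of 0.17. The sign turned to -0.23 without Control mouse 3, which had the fewest mitochondrial UMIs, and AKI-CKD mice had a median of -0.52. Nuclear OXPHOS and ribosomal protein genes had medians of -0.09 and -0.07 over 82 genes each, against 0.29 and 0.38 for AKI-CKD mice. Without AKI-CKD + EGT mouse 3 they were -0.01 and 0.05, and without mouse 1 they were -0.18 and -0.22. Among abundant single genes, Lrp2, the endocytic receptor megalin (-0.17), Cyp4b1, a cytochrome P450 (-0.13), Cst3, which encodes cystatin C (-0.11), the respiratory chain subunit Uqcr11 (-0.23) and the nuclear RNA Malat1 (-0.08) overlapped. Cox6b1, a subunit of cytochrome oxidase, did not (-0.36, adjusted p = 0.734), and was at -0.13 without AKI-CKD + EGT mouse 1, its lowest mouse. The injury markers Havcr1, Lcn2 and Vcam1 were under 1 CPM in PT cells of every mouse.

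Other injury genes ranged more widely. Spp1 was at 328, 242 and 204 CPM in Control mice and 624, 301 and 279 CPM in AKI-CKD + EGT mice, and Clu was at 19.0, 14.2 and 9.18 against 15.8, 19.3 and 37.1 CPM. The groups overlapped for both, and Clu was highest in AKI-CKD + EGT mouse 3, as was Wfdc2 (0.71 ± 0.386). The injury list had a median of 0.43 in PT cells, with 0 of 29 genes without overlap, where 5.02% above and 5.54% below were the shares over all PT genes. It was 0.18 without that mouse and 0.71 without Control mouse 1. The list of distal salt and mineral transport had the highest median in PT cells, 0.63, which was 0.04 without mouse 3 and 0.96 without mouse 1. Markers of DCT cells summed to 94.8 to 191 CPM in PT cells of Control mice and to 149 to 365 CPM in those of AKI-CKD + EGT mice, with all 7 markers detected, and their part in these medians was not tested.

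**Figure D4:**
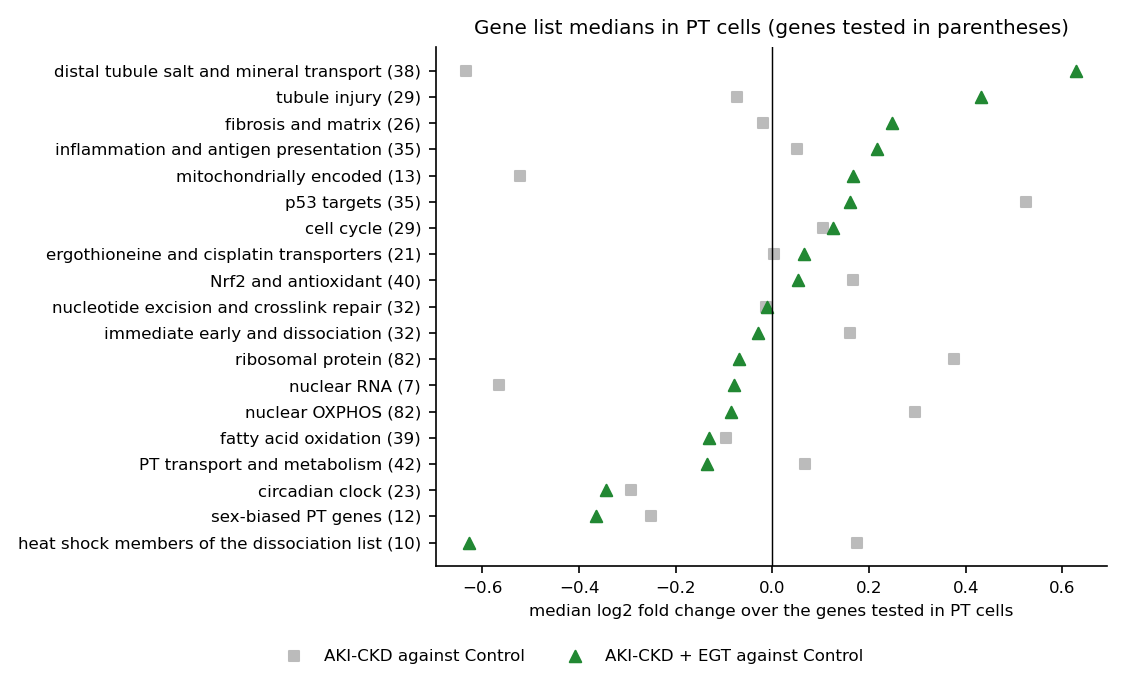
Median log2 fold change over the tested genes of each list in PT cells, for AKI-CKD + EGT (triangles) and AKI-CKD (squares) against the same Control mice. The haemoglobin list (-0.15 and -5.58) lies outside the axis and is left out. The p53 list is at 0.16 and 0.52, the heat shock genes are at -0.63 and 0.17, and the distal transport list, at 0.63, rests on 1 mouse.

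Distal tubule cells showed separations of single genes that did not pass the test. In DCT cells Slc12a3, the thiazide-sensitive salt transporter, was at 3298, 2625 and 1951 CPM in Control mice and 3941, 3737 and 3165 CPM in AKI-CKD + EGT mice. The groups overlapped (log2 fold change 0.46 ± 0.193, adjusted p = 0.905). It was 0.12 with clusters built without aligning libraries and 0.29 without Control mouse 3. Genes named by the smallest p in DCT cells were Ccdc106, Gm20390, Gm21974, Gm48099 and Sfxn5 on the higher side, and Clec2d, Mroh5, Eno1b, Resf1 and Rps27rt on the lower. The part of PT RNA in the Clec2d values was not tested. Pvalb (0.19 ± 0.302) and Calb1 (-0.42 ± 0.384), calcium-binding proteins of DCT cells, overlapped. Eno1b, at 46.1, 71.9 and 89.5 CPM in Control mice and 35.3, 18.7 and 23.4 CPM in AKI-CKD + EGT mice (-1.42 ± 0.308, DESeq2 0.0425), shares near-identical sequence with another enolase gene and is uncertain. Over all genes, 4.63% lay above and 4.63% below Control without overlap in DCT cells, and 5.9% and 5.07% did so in LOH cells.

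In LOH cells the calcium-binding protein gene Calb1, a marker of DCT cells, was at 35.4, 31.9 and 39.4 CPM in Control mice, 67.4, 93.7 and 112 CPM in AKI-CKD + EGT and 15.6, 29.3 and 4.59 CPM in AKI-CKD mice. Every AKI-CKD + EGT mouse lay above all others (1.38 ± 0.316 against Control, adjusted p = 0.362). Against AKI-CKD mice the log2 fold change was 2.45 and passed (adjusted p = 0.0144), while AKI-CKD against Control was at -1.07 (adjusted p = 0.425). The 7 DCT markers together summed to 442 to 474 CPM in LOH cells of Control mice and to 614 to 712 CPM in those of AKI-CKD + EGT mice, and their part in the Calb1 values was not tested. Gstp1, a glutathione transferase, was at 78.6, 70.4 and 61.9 CPM against 199, 121 and 92.1 CPM (0.94 ± 0.227). Grik3, a glutamate receptor subunit, was at 288, 164 and 234 against 138, 102 and 102 CPM (-1.01 ± 0.207, DESeq2 0.0441), and it did not overlap in endothelial cells either (-1.08). Umod, the main protein of normal urine, was at 4070, 4839 and 5042 CPM in Control mice and 7335, 3599 and 3333 CPM in AKI-CKD + EGT mice. AKI-CKD + EGT mouse 1 stood above and mice 2 and 3 below Control, so that the log2 fold change was 0.03 ± 0.238. Slc12a1, the salt transporter of the thick limb (0.14), and Egf (0.19) overlapped as well. The other LOH genes named by the smallest p were Arhgap26, Leng8 and Stx16 on the higher side (1.08, 1.03 and 0.83) and Polr1f and Rps27rt on the lower (-1.07 and -1.06).

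In all kept cells the make-up of each sample enters the values. Of 39 distal transport genes, 9 lay above Control in all 3 AKI-CKD + EGT mice and 1 below, against 7.08% and 6.25% over all genes, with a median of 0.46 that was 0.18 without mouse 3. Slc12a3 was at 186, 128 and 76.8 CPM in Control mice and 228, 211 and 350 CPM in AKI-CKD + EGT mice (1.01 ± 0.355). The fibrosis list had a median of 0.49 over 36 genes, with 6 above and 2 below (Col5a1 and Timp3), and of 0.31 without Control mouse 3. Col1a1, the main collagen of scar tissue, was at 0.119, 0.275 and 0.0346 against 0.453, 0.382 and 0.503 CPM, and Dcn, a proteoglycan of fibroblasts, at 0.748, 0.802 and 0.150 against 2.46, 1.21 and 2.40 CPM. The groups did not overlap, and neither passed the test (adjusted p = 0.627 and 0.607). Col1a1 was under 1 CPM in each of these mice, and so was Dcn in Control mice, so these values rest on few UMIs. The inflammation list had a median of 0.32 over 39 genes, and 0.17 without AKI-CKD + EGT mouse 2. Cd9, a tetraspanin of cell membranes, was at 20.5, 26.4 and 18.6 against 43.8, 36.1 and 36.1 CPM (0.82 ± 0.183, DESeq2 0.0176). It was among the genes named by the smallest p in all kept cells, beside Cbr1, Gm20390, Maz and Srcin1 on the higher side and Clec2d, Gm16066, Gm47551, Mettl15 and Mfsd13b on the lower.

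These values stand beside the shares of cells. PT cells made up 83.2, 85.1 and 87.7% of Control cells and 83.8, 79.6 and 65.3% of AKI-CKD + EGT cells (exact two-sided permutation test, p = 0.2). DCT cells made up 5.54, 4.36 and 4.11% against 5.81, 5.82 and 13.3%, without overlap (exact permutation p = 0.1, the smallest that 3 mice against 3 allow). The difference of 3.65 percentage points was 13.7 when clusters were built without aligning libraries, and 2.33 among cells outside the proximal tubule. The groups overlapped in both cases (exact permutation p = 0.2 and 0.5). Shares of CD-PC (1.30, 1.26 and 1.11% against 1.87, 1.82 and 3.93%), endothelial (1.62, 1.62 and 1.59% against 1.99, 2.45 and 2.49%) and B cells (0.244, 0.233 and 0.179% against 0.395, 0.782 and 0.527%) also did not overlap, each with p = 0.1 by the exact permutation test. Adjusted over the 12 types, their p was 0.3. The difference for endothelial cells changed sign, from 0.695 to -0.707 percentage points, when only cells outside the proximal tubule were counted. For LOH cells it changed from 1.04 to -3.72 in the same way, and to -0.198 without AKI-CKD + EGT mouse 3. Shares of cells in a suspension also depend on dissociation, which was not measured. When clusters were rebuilt without the step that aligns libraries, 6110 PT cells of the 9 mice were named DCT cells, 4163 of them from AKI-CKD + EGT mouse 3.

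**Figure D5:**
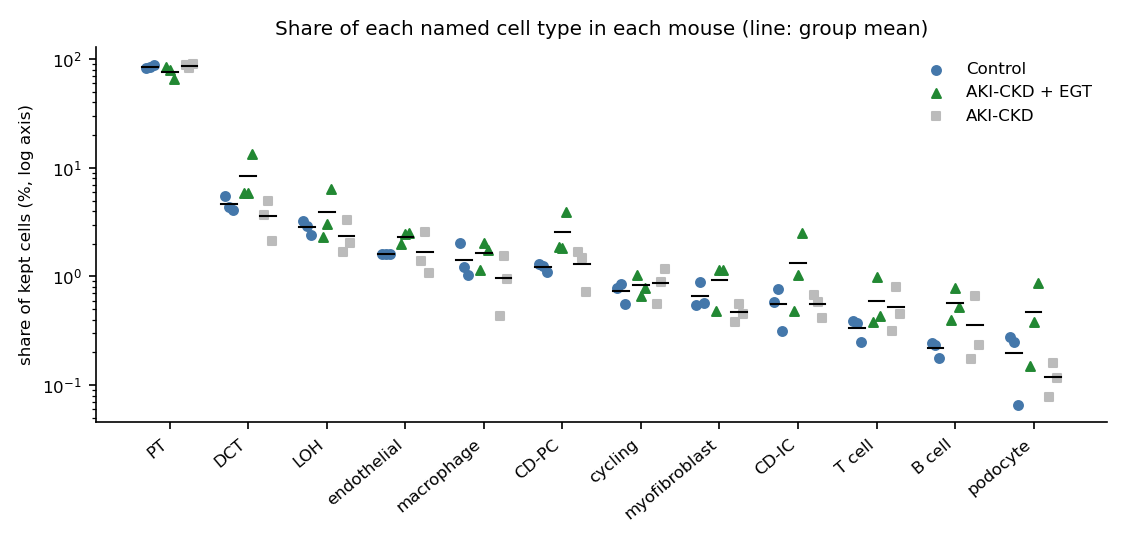
Share of each of the 12 named cell types among the kept cells of each mouse, in percent on a log axis, with a line at each group mean. AKI-CKD + EGT mouse 3 is the lowest point for PT (65.3%) and the highest for DCT (13.3%).

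Macrophages had 0 genes called between AKI-CKD + EGT and Control mice (0%). Isg15 and Ccl5 were among the 5 genes called higher in AKI-CKD mice against the same Control mice (adjusted p = 0.00508 and 0.00543). Isg15, an interferon-induced ubiquitin-like modifier, was at 70.4, 59.1 and 53.8 CPM in Control mice, 62.1, 75.5 and 52.4 CPM in AKI-CKD + EGT and 165, 272 and 396 CPM in AKI-CKD mice. AKI-CKD + EGT mice overlapped with Control (0.04 ± 0.281) and lay below AKI-CKD mice (-2.15, adjusted p = 0.00685). Ccl5, which attracts T cells, was at 10.1, 18.7 and 29.6 CPM in Control mice and 37.9, 47.5 and 47.0 CPM in AKI-CKD + EGT mice (1.30 ± 0.509, adjusted p = 1). It did not overlap between them, and AKI-CKD mice had 356, 73.0 and 257 CPM. Ccl5 was also the top gene of the T cell cluster, and the part of T cell RNA in these values was not tested. Ptafr, the receptor of platelet-activating factor, had the lowest p in the comparison, at 24.5, 28.0 and 25.5 against 68.2, 71.9 and 61.2 CPM (1.37 ± 0.231, adjusted p = 0.215).

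In collecting duct cells the lowest adjusted p belonged to Slc14a2 in CD-PC and Sox4 in CD-IC cells. Slc14a2, the urea transporter of the inner medullary collecting duct, was at 1.05, 0.955 and 0 CPM in CD-PC cells of Control and at 182, 128 and 16.4 CPM in those of AKI-CKD + EGT mice (adjusted p = 0.0613, called by DESeq2). It passed the filter on low counts through the AKI-CKD + EGT mice alone, so these p-values are a description. Its UMIs came from 10, 17 and 4 CD-PC cells of AKI-CKD + EGT mice 1 to 3, and in mouse 3 a single cell held 31 of the 34. Slc14a2 was also on the list of thin limb markers used to name clusters. Over all kept cells the groups overlapped, at 168, 870 and 189 UMIs in Control and 252, 665 and 188 in AKI-CKD + EGT mice, and the part of cluster naming in the CD-PC values was not tested. Without AKI-CKD + EGT mouse 3, Slc14a2, S100a6 and Akr1b1 passed in CD-PC cells. In CD-IC cells Sox4, a transcription factor of progenitor cells, was at 351, 321 and 262 CPM in Control mice and 128, 175 and 130 CPM in AKI-CKD + EGT mice (-1.12 ± 0.201, adjusted p = 0.215, DESeq2 0.0196). The groups did not overlap, and AKI-CKD mice were at 248, 297 and 205 CPM.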

How the data were processed

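Single-cell RNA libraries of 9 kidneys, 1 per mouse, were analysed. The sample labels gave each mouse's group and number. For each mouse the authors deposited raw UMI counts per gene and cell, made with PISA as the matrix headers state. The submitters' processing notes name the build GRCm39. The aligner, annotation and cell-calling rule are not given in the sources used here. No column of another series was present. Whether same-group kidneys were handled separately is not stated, so p-values measure the spread between these mice, and counting intervals cover counting error only.

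Analysis used Python 3.11.15 with numpy 2.4.6, scipy 1.17.1, igraph 0.11.9 and scikit-learn 1.9.0, and R 4.3.3 with edgeR 4.0.16, limma 3.58.1 and DESeq2 1.42.0. After the filters, 2000 variable genes and 30 components corrected by Harmony gave clusters (20 neighbours, resolution 1.1). Naming a cluster took 3 or more markers raised 2 fold or more. The reference for each type left out clusters in which its markers were raised most, which departs from the written plan, and a rule that left clusters led by neuronal or haemoglobin genes unnamed was added after clusters were seen. Doublets were not removed in the main results, and an alternative dropped the top 6% of doublet scores in each library. Counts were summed per mouse and type, filtered with filterByExpr, scaled by TMM and fitted over the 9 mice. p-values are two-sided with Benjamini-Hochberg adjustment over all genes tested. CPM use TMM-scaled library sizes. Change between types was tested with limma on log2 CPM with a prior count of 1.

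Named genes were those called, with a mean log2 CPM from 4 upward and groups that did not overlap (up to 10 each way in the 4 main populations and 3 in the 4 others), in the main populations places up to 5 each way filled by the smallest unadjusted p, and a fixed set of p53, injury, transport and mitochondrial genes. Others named from the gene lists or for their pattern were chosen after values were seen. The members and lists were chosen with earlier results of these data known. Alternatives were DESeq2, no filter, the 6 mice alone, a replicate block, each mouse left out, other mitochondrial limits, no Harmony, library sizes without mitochondrial, ribosomal and nuclear RNA genes, and other denominators of the shares. The edgeR and limma steps were tested on simulated data.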

Additional observations from a re-analysis of the deposited data

How the results depend on the processing

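Counts of called genes depended on the tool and the filter. DESeq2 called 23 genes higher and 86 lower in all kept cells, 30 and 74 in PT, 4 lower in DCT, 2 lower in LOH, 4 in endothelial, 2 in CD-PC and 1 in CD-IC cells. With no filter on low counts, edgeR called 2 higher and 15 lower in all kept cells, 6 and 22 in PT, 42 and 44 in DCT, 37 and 44 in LOH, 62 in endothelial cells, 33 in macrophages, 43 in CD-PC and 36 in CD-IC cells. The cause was not tested. At most 10% mitochondrial UMIs, or leaving out the highest doublet scores, left 0 genes higher in all kept cells, and the latter called 2 lower in PT cells. Leaving out 1 mouse gave 0 to 0 genes higher in all kept cells and 1 to 1 in endothelial cells, where Zbtb16 was lost each time. The endothelial gene kept was Ccl21a, which passed the filter through the EGT mice alone, so its staying is a description only. CD-PC cells had 0 to 3 (3 without AKI-CKD + EGT mouse 3) and CD-IC cells 0 to 1 (1 without Control mouse 2 and 1 without AKI-CKD + EGT mouse 3). For DCT against PT and for LOH against PT there were 0 to 1 (Cdkn1a, without AKI-CKD + EGT mouse 2). Replicate numbers did not pair Control with AKI-CKD + EGT mice. The 24 correlations of same-numbered mice of these groups were -0.458 to 0.0874, with 0 over 0.1. Same-numbered pairs with AKI-CKD mice varied more in all kept cells. Control and AKI-CKD mice 1 to 3 were at -0.000932, -0.0653 and 0.373. AKI-CKD and AKI-CKD + EGT mice 1 to 3 were at -0.0361, 0.112 and -0.45. Some differently numbered Control and AKI-CKD + EGT mice did correlate in all kept cells. Control mouse 1 was at 0.473 with AKI-CKD + EGT mouse 3, and Control mouse 3 at 0.393 with AKI-CKD + EGT mouse 1. The other differently numbered pairs of these groups lay between -0.12 and 0.145. What such mice shared was not tested. With the replicate block, 0 genes were called in all kept cells, 1 in endothelial cells (Ccl21a, with Zbtb16 at an adjusted p of 0.0617), 1 in CD-PC cells and 1 for DCT against PT (Cdkn1a). Of all 82 named gene and population pairs, 22 changed sign under at least 1 alternative. Of the 42 pairs named by fold or p, 0 did. These 42 were picked for groups that did not overlap, so leaving out 1 mouse could hardly turn their sign. That count is therefore a description only. Of the differences in cell shares, 8 took another sign under an alternative. Beside those of LOH and endothelial cells, these were myofibroblasts (-0.639 percentage points), macrophages (-2.20) and cycling cells (-1.01) counted outside the proximal tubule, and cycling cells without Harmony (-0.0439) and without AKI-CKD + EGT mouse 1 (-0.00914). Of the 1341 cells named myofibroblast, 706 were named thin limb without Harmony and 538 kept the name.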
